A study of Danio rerio with 6 samples.

Results

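The Hox cluster genes of zebrafish were followed in embryos labelled as *dhx38* mutants and in their wild-type siblings. Members were the genes of the larger deposited table whose symbol starts with hox, a cluster letter from a to d, a paralogue group number and a copy letter. This gave 48 of 21769 genes. They lay in 7 clusters on 7 chromosomes, with 11 in hoxba (chromosome 3), 11 in hoxca (chromosome 23), 7 in hoxda (chromosome 9), 6 in hoxaa (chromosome 19), 5 in hoxab (chromosome 16), 4 in hoxbb (chromosome 12) and 4 in hoxcb (chromosome 11). RNA was sequenced from 3 libraries of homozygous mutants (dhx38-/-, also written dhx38--) and 3 libraries of WT siblings, all from embryos of strain AB collected 36 hours after fertilization (36 hpf). *dhx38* encodes an RNA helicase of the splicing machinery. The labels name the tissue as tail, while the extraction protocol names the trunk region. They state neither the lesion of the mutant allele nor how many embryos made up a library. No label ties the 3 libraries of a genotype to separate clutches, and p-values therefore reflect only the spread among the libraries at hand, which may be technical.

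Hox genes encode homeodomain transcription factors that give cells their position along the head-to-tail axis. Within a cluster, genes of low paralogue number begin to be expressed further forward, in the hindbrain and pharyngeal region, and genes of high number further back, in the posterior trunk and tail. Genes of the same number in different clusters are paralogues, and the copy letters a and b mark duplicate clusters of teleost fishes. The highest-numbered A and D genes are also used in the outer part of the fins.

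The values are read counts scaled to library size (normalized CPM), deposited with 2 decimals. Depth read from the spacing of low values was 32.1, 37.7 and 19.5 M reads in mutant replicates 1, 2 and 3, and 34.7, 36.5 and 20.05 M in sibling replicates 1, 2 and 3. Every one of the 48 genes was detected in each of the 6 libraries. The lowest value was that of *hoxa11a* in mutant replicate 2, at 0.34 normalized CPM or 13 reads, and the highest that of *hoxb3a* in mutant replicate 3, at 94.8. The targeted gene, *dhx38*, was at 57.2, 90.4 and 53.1 normalized CPM in the mutants and at 33.8, 33.8 and 27.3 in the siblings, which does not check the genotype because the lesion is not stated.

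Between mutants and siblings, no Hox gene passed an adjusted p of 0.05 (limma on log2(value + 1) over all genes, Benjamini-Hochberg), against a background of 1.7% of the 21769 genes (1.41% higher and 0.285% lower). At an unadjusted p under 0.05 there were 7 of 48, 2 higher and 5 lower in mutants, against 20.9% of all genes. On the log2(value + 1) scale, log2 fold changes ran from -0.75 for *hoxa2b* to 0.50 for *hoxb1a*. That scale understates the fold change of low genes. With a pseudocount of 0.1, *hoxa13b* was at -1.01, *hoxa2b* at -0.81 and *hoxb1a* at 0.60. The log2 fold change was below 0 for 33 of 48 members, with a median of -0.14, against 50.8% of all genes and a median of -0.01. The 2 genotypes did not overlap for 4 members with higher mutant values and 9 with lower ones. Over all genes that was the case for 13.3% and 13.8%. In bulk RNA such as this, fewer cells of a type and less RNA per cell cannot be told apart. Libraries of the same replicate number varied together, and with the replicate number as a block 3 members fell, *hoxa2b*, *hoxc4a* and *hoxa13b*, and none rose. The background in that fit was 13.7% of all genes, 6.87% lower and 6.85% higher. The same 3 genes fell when mutant replicate 1 was left out and no block was used, where 3.97% of all genes fell.

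**Figure D1:**
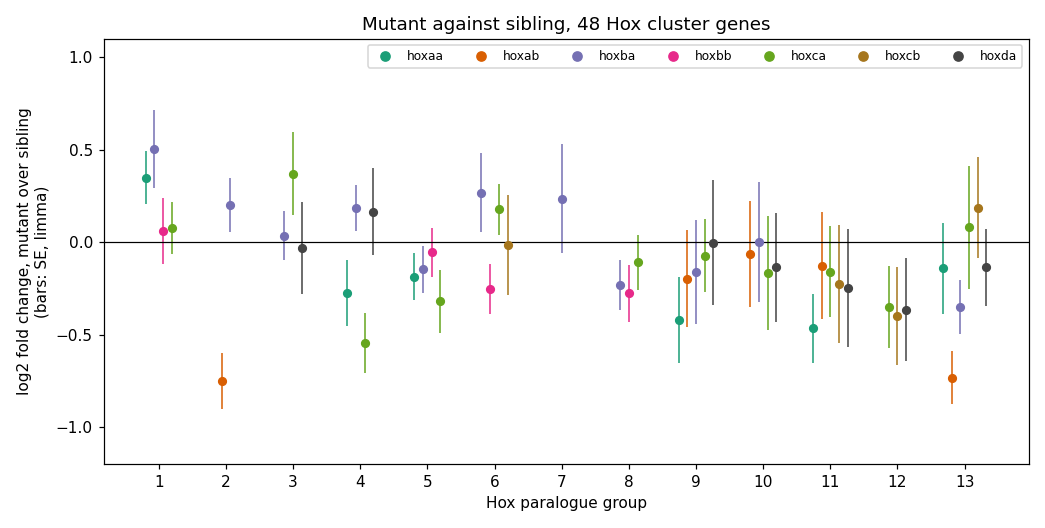
The vertical axis gives the log2 fold change of each of the 48 Hox genes, mutant over sibling, with its SE (limma, 3 libraries per genotype), and the horizontal axis the paralogue group, coloured by cluster. Most points lie within 0.5 of 0, *hoxa2b* (-0.75), *hoxa13b* (-0.73) and *hoxc4a* (-0.55) are the lowest, and all 3 genes of group 12 lie below 0.

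Groups 1 to 4 held 13 members, 4 with a log2 fold change below 0 and 9 above, with a median of 0.08. The sign of that median turned without mutant replicate 3 (-0.018), and its size was larger without mutant replicate 1 (0.15), mutant replicate 2 (0.146) or sibling replicate 3 (0.156). All 4 genes of group 1 stood above 0. *hoxb1a*, which sets the identity of rhombomere 4 of the hindbrain, was at 4.44, 7.63 and 4.04 normalized CPM in mutant replicates 1, 2 and 3, and at 3.11, 3.57 and 3.43 in sibling replicates 1, 2 and 3. All mutant values were above all sibling values, with mutant replicate 2 far above the other two, and the log2 fold change of 0.50 (SE 0.21) did not pass (limma adjusted p = 0.226, and 0.0709 with the replicate block). Without mutant replicate 2 it was 0.26. *hoxa1a* was at 5.34, 5.69 and 4.32 in mutants and 3.51, 4.05 and 3.79 in siblings, again without overlap (log2 fold change 0.35, limma adjusted p = 0.222). *hoxc1a*, the group 1 gene with the highest mean, was at 38.6, 40.2 and 48.1 in mutants and 38.9, 38.8 and 42.1 in siblings, and the genotypes overlapped (log2 fold change 0.08, SE 0.14).

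The 2 genes of group 2 stood on opposite sides of 0. *hoxa2b*, which with *hoxb2a* patterns the second pharyngeal arch, was at 8.32, 7.34 and 9.29 normalized CPM in mutant replicates 1, 2 and 3, and at 13.7, 13.8 and 16.5 in sibling replicates 1, 2 and 3. The genotypes did not overlap, and each mutant library was lower than the sibling of its number. Its mean was 8.32 ± 0.975 in mutants and 14.7 ± 1.59 in siblings (SD, n = 3 each), with a log2 fold change of -0.75 (SE 0.15). It missed the threshold without the block (limma adjusted p = 0.0519) and fell with it (limma adjusted p = 0.0103). When the pseudocount was lowered to 0.1 the blocked fit no longer called it (limma adjusted p = 0.0750). *hoxb2a* was at 19.7, 22.4 and 25.8 in mutants and 19.6, 19.4 and 19.3 in siblings (log2 fold change 0.20, limma adjusted p = 0.470). The lowest mutant value lay just above the highest sibling value.

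Group 3 genes are expressed from the posterior hindbrain backwards. *hoxb3a*, the member with the highest mean, was at 86.1, 84.2 and 94.8 normalized CPM in mutants and 87.8, 88.9 and 81.7 in siblings, and the genotypes overlapped (log2 fold change 0.04, SE 0.13). *hoxc3a* was at 34.5, 39.7 and 59.9 in mutants and 34.3, 28.3 and 38.4 in siblings. Mutant replicate 3 was the highest of the 6, the genotypes overlapped, and the log2 fold change was 0.37 (SE 0.22, limma adjusted p = 0.385). It was 0.14 without that library.

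In group 4, *hoxc4a* was at 14.1, 9.64 and 11.3 normalized CPM in mutants and 17.2, 17.1 and 17.7 in siblings. The 3 sibling values lay close together and above all mutant values, and mutant replicate 1 was the nearest to them. Its log2 fold change was -0.55 (SE 0.16), short of the threshold (limma adjusted p = 0.117) and past it with the replicate block (0.0385) or without mutant replicate 1 (0.0390), though not in the blocked fit at a pseudocount of 0.1 (limma adjusted p = 0.118). *hoxa4a* was at 49.6, 45.1 and 63.6 in mutants and 58.4, 59.1 and 73.9 in siblings. Replicate 3 was the highest in both genotypes, and they overlapped (log2 fold change -0.28, SE 0.18). *hoxb4a*, a hindbrain gene of the same group named after its values were seen, lay the other way, at 16.9, 17.0 and 16.8 in mutants and 15.03, 14.8 and 14.4 in siblings (log2 fold change 0.18, limma adjusted p = 0.438). Its genotypes did not overlap.

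**Figure D2:**
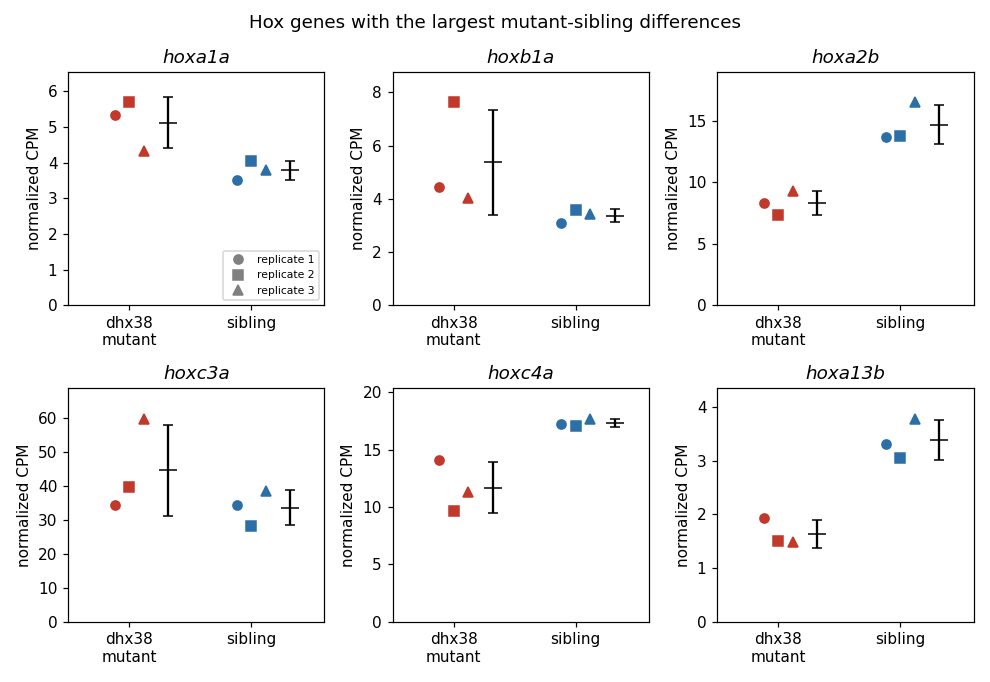
Normalized CPM (vertical axis) of the 6 Hox genes with the largest log2 fold changes in each direction, 3 dhx38 mutant libraries on the left and 3 sibling libraries on the right of each panel, with marker shapes for replicate number and bars for mean and SD. *hoxa2b*, *hoxc4a* and *hoxa13b* are lower in every mutant library than in any sibling library, *hoxa1a* and *hoxb1a* are higher, and *hoxc3a* overlaps.

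Groups 5 to 8, whose genes are expressed through the trunk, held 12 members. Of these 9 had a log2 fold change below 0, with a median of -0.13, and all 12 lay between -0.32 and 0.27. *hoxb5b* was at 17.8, 16.8 and 18.0 normalized CPM in mutants and 17.3, 17.6 and 20.04 in siblings, with overlap (log2 fold change -0.06, SE 0.13). *hoxb6b* was at 10.2, 8.74 and 9.84 in mutants and 12.5, 11.2 and 11.2 in siblings, without overlap (log2 fold change -0.25, limma adjusted p = 0.325). *hoxb7a*, the 1 member of group 7, was at 6.30, 9.38 and 13.8 in mutants and 6.79, 6.16 and 11.3 in siblings, so that its spread within a genotype was larger than the difference between them. *hoxb8a*, expressed in the spinal cord, was at 31.8, 32.8 and 37.5 in mutants and 39.8, 42.0 and 38.6 in siblings. All its mutant values were below all sibling values (log2 fold change -0.23, limma adjusted p = 0.366). All 4 genes of group 5 stood below 0. Their summed signal was 43.6, 42.5 and 42.0 in mutants and 47.7, 47.1 and 47.3 in siblings, 2 ranges that did not overlap and that hardly varied within a genotype. None of these genes was called, and *hoxb5b* and *hoxc5a* overlapped between genotypes. The sums of group 8 did not overlap either, though barely, at 51.82, 53.7 and 62.88 in mutants and 64.34, 68.44 and 62.92 in siblings. Differences between group sums were not tested. Among the 13 paralogue groups, the sums of all groups other than 5 and 8 overlapped between genotypes. For single genes, mutants were lower without overlap in 13.8% of all genes.

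Groups 9 to 13, used in the posterior trunk, tail and fins, held 23 members. In all 20 had a log2 fold change below 0, and the median was -0.16. In same-number pairs the median was -0.38, -0.06 and -0.12 in pairs 1, 2 and 3. Their summed signal was 177, 209 and 330.5 normalized CPM in mutant replicates 1, 2 and 3, and 228, 214 and 353 in sibling replicates 1, 2 and 3. The genotypes overlapped widely, and replicate 3 was the highest in both. Leaving out a replicate 3 library moved the median to -0.43 (without mutant replicate 3) or 0.06 (without sibling replicate 3), and leaving out both of them gave -0.21.

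*hoxa13b*, of the distal fin and tail group, was the posterior member furthest from 0. It was at 1.93, 1.5 and 1.48 normalized CPM in mutant replicates 1, 2 and 3, and at 3.31, 3.05 and 3.79 in sibling replicates 1, 2 and 3. All mutant values were below all sibling values. The mean was 1.64 ± 0.254 in mutants and 3.38 ± 0.375 in siblings (SD, n = 3 each), and the mutant value of fewest reads rested on 27 reads. The log2 fold change of -0.73 (SE 0.14) lay at the threshold without passing it (limma adjusted p = 0.0501). With the replicate block *hoxa13b* fell (limma adjusted p = 0.0135), and at a pseudocount of 0.1 the blocked fit did not call it (limma adjusted p = 0.0748).

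*hoxb13a*, a tail gene named after its values were seen, was at 6.04, 7.14 and 7.54 normalized CPM in mutants and 8.15, 9.08 and 10.02 in siblings, also without overlap (log2 fold change -0.35, limma adjusted p = 0.223). *hoxc13a*, with the highest mean of group 13, was at 7.24, 16.1 and 17.3 in mutants and 8.89, 11.6 and 16.5 in siblings. Its spread between replicates exceeded the difference between genotypes (log2 fold change 0.08, SE 0.33). The 3 genes of group 12 were lower in the mutant of each of the 3 same-number pairs. *hoxc12a* was at 8.64, 10.6 and 13.9 in mutants and 11.8, 12.8 and 18.5 in siblings, with overlap (log2 fold change -0.35, limma adjusted p = 0.407, and 0.10 with the replicate block). Being lower in all 3 pairs held for 10 of the 23 genes of groups 9 to 13 and for 27.0% of all genes, and being higher in all 3 for none of the 23 and for 25.6% of all genes.

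Groups 9 to 11 are given here by the member with the highest mean in each. *hoxb9a* was at 33.6, 36.1 and 62.3 normalized CPM in mutants and 41.5, 39.1 and 65.6 in siblings. *hoxa10b* was at 12.3, 14.1 and 24.1 in mutants and 16.3, 12.8 and 23.3 in siblings. *hoxa11b* was at 7.50, 9.90 and 16.6 in mutants and 10.6, 9.78 and 16.04 in siblings. In each of these 3 genes replicate 3 of either genotype was higher than all libraries of replicates 1 and 2, and the genotypes overlapped, with log2 fold changes between them of -0.16, -0.06 and -0.13. *hoxb9a* was lower in the mutant of all 3 same-number pairs (log2 differences of -0.30, -0.11 and -0.07), with an SE of 0.28 without the replicate block and 0.13 with it (limma adjusted p = 0.435 with it). Another group 11 gene, *hoxa11a*, picked with its values known, did not overlap, at 0.88, 0.34 and 0.87 in mutants and 0.98, 1.4 and 1.61 in siblings (log2 fold change -0.47, limma adjusted p = 0.208, and 0.0894 with the block).

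By cluster, median log2 fold changes between genotypes were -0.23 in hoxaa, -0.20 in hoxab, 0.04 in hoxba, -0.15 in hoxbb, -0.11 in hoxca, -0.12 in hoxcb and -0.14 in hoxda. The hoxab cluster, with 5 of 5 genes below 0, held 2 of the 3 genes that fell with the block. Its summed signal was 41.4, 43.5 and 72.0 normalized CPM in mutants and 58.5, 52.5 and 79.7 in siblings, and the genotypes overlapped. The hoxba cluster had 7 of 11 genes above 0. Its sums were 235, 255 and 308 in mutants and 256, 257 and 288 in siblings, also with overlap. Neighbouring genes of a cluster lie close together on 1 strand and their transcripts can overlap, and how reads in shared stretches were assigned is not given in the sources used here.

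The largest pattern among the posterior genes followed replicate number. In 21 of 23 genes of groups 9 to 13, replicate 3 was above replicates 1 and 2 in both genotypes, against 10 of 25 genes of groups 1 to 8 and 22.9% of all genes. The 2 exceptions were *hoxa11a* and *hoxa13b*. The median log2 difference of replicate 3 from the mean of replicates 1 and 2 in groups 9 to 13 was 0.76 in mutants and 0.56 in siblings. It was 0.14 and -0.07 in groups 5 to 8, 0.28 and 0.11 in groups 1 to 4, and 0.02 and -0.01 over all genes. All 3 genes of group 12 and all 9 genes of groups 9 and 10 shared it.

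**Figure D3:**
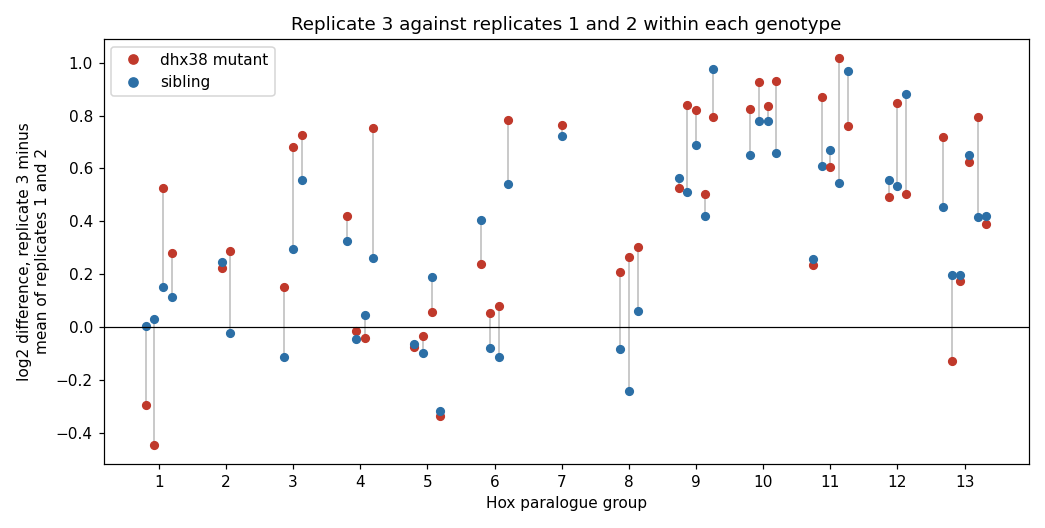
The vertical axis gives the log2 difference between replicate 3 and the mean of replicates 1 and 2 for each of the 48 Hox genes, with mutants and siblings as separate points joined by a line, and the horizontal axis the paralogue group. From group 9 on, nearly all points of both genotypes lie above 0, with medians of 0.76 in mutants and 0.56 in siblings, while group 5 lies around 0.

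The contrast of replicate 3 with replicates 1 and 2, fitted with genotype as a term, was chosen after the data were seen. It called 3 members, all higher in replicate 3, against 1.7% of all genes (0.74% higher and 0.955% lower). *hoxb9a* differed by 0.76 on the log2 scale (SE 0.13, limma adjusted p = 0.0416), *hoxd11a* by 0.86 (SE 0.14, limma adjusted p = 0.0416) and *hoxd10a* by 0.79 (SE 0.14, limma adjusted p = 0.0462). *hoxd10a* was at 20.05 normalized CPM in mutant replicate 3 and at 9.69 and 10.4 in mutant replicates 1 and 2, and at 19.4 in sibling replicate 3 and 12.9 and 11.02 in sibling replicates 1 and 2. The count was 0 with a pseudocount of 0.1, 6 with centring, and between 0 and 5 when a library was left out. Of the libraries, leaving out mutant replicate 1, mutant replicate 3, sibling replicate 2 or sibling replicate 3 gave 0, mutant replicate 2 gave 5 and sibling replicate 1 gave 2.

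Groups 9 to 13 made up 27.1%, 29.8% and 35.2% of the summed Hox signal in mutant replicates 1, 2 and 3, and 30.5%, 29.5% and 38.6% in sibling replicates 1, 2 and 3. Replicate 3 thus had the largest posterior share in both genotypes. Groups 1 to 4 made up 52.3%, 49.5% and 47.3% in mutants and 48.5%, 49.0% and 43.6% in siblings. Values are not scaled to transcript length, so these shares compare libraries and not the level of 1 gene with another. Replicate 3 of both genotypes was also the shallower, and the labels point to a gene ID key of its own for replicate 3 and to 2 sequencing providers without assigning them. Some tail bud and muscle markers were also higher in replicate 3 of both genotypes. The tail bud gene *tbxta* was at 30.0 in mutant replicate 3, against 14.4 and 17.9 in mutant replicates 1 and 2, and at 28.1 in sibling replicate 3, against 13.4 and 11.1 in sibling replicates 1 and 2 (limma adjusted p = 0.0368 for the replicate contrast). Replicate 3 was the highest in both genotypes for 6 of 11 measured tail bud genes, 6 of 12 muscle genes, 7 of 14 spinal cord genes and 4 of 6 pectoral fin genes. It was so for 3 of 9 hindbrain genes, 4 of 24 forebrain and midbrain genes and 2 of 18 eye and lens genes. The part of these tissues in the replicate difference was not tested. The tissue taken, depth and sequencing provider cannot be told apart here.

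**Figure D4:**
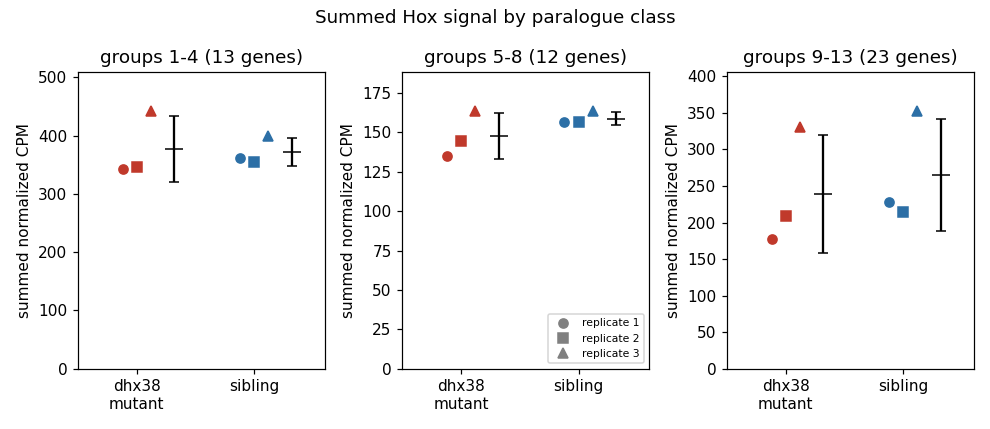
Summed normalized CPM (vertical axis, from 0) of the Hox genes of paralogue groups 1 to 4, 5 to 8 and 9 to 13 in 3 dhx38 mutant libraries (left) and 3 sibling libraries (right), with marker shapes for replicate number and bars for mean and SD. In groups 9 to 13, replicate 3 stands at 330.5 in mutants and 353 in siblings, above the other 4 libraries, which lie between 177 and 228.

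As a reading of body position, the Hox genes covered all 13 paralogue groups in all 6 libraries. Genes of low number can be expressed far backwards, as those of group 3 are, so this alone does not place the tissue. Genes of group 13, known from the tail end, were present together with hindbrain genes of groups 1 and 2. A marker from in front of any Hox expression was present as well. This forebrain gene, *foxg1a*, was at 22.5, 15.6 and 17.1 normalized CPM in mutants and 31.4, 30.9 and 27.4 in siblings (limma adjusted p = 0.0820, and 0.0192 with the replicate block). Such head RNA is at odds with labels that name tail and trunk, and its source was not tested. All 24 listed forebrain and midbrain genes and all 18 eye and lens genes were in the table. Their summed levels were 397 to 483 in mutants and 450 to 539 in siblings for forebrain and midbrain. For eye and lens they were 1448, 644 and 506 in mutants and 1763, 1562 and 1202 in siblings, by replicate number. Mutant replicate 1 thus lay among the siblings. Of the 18 eye and lens genes 17 had a log2 fold change below 0, with a median of -0.95. In same-number pairs the median was -0.33, -1.19 and -1.07 in pairs 1, 2 and 3. In 3 of the 18 all mutant values were below all sibling values, against 13.8% of all genes. Limma called 0 of the 18, against 1.7% of all genes, and 12 with the replicate block, all lower, against 6.87% of all genes. Of the 24 forebrain and midbrain genes 18 lay below 0, with a median of -0.19. Limma called 0 of these, against 1.7% of all genes, and with the block 5 lower and 1 higher, against 6.87% and 6.85%. In 4 of the 24 all mutant values were below all sibling values and in 3 above, against 13.8% and 13.3% of all genes. Further back, 8 of 12 trunk muscle genes (median -0.16) and 9 of 14 spinal cord genes (median -0.18) lay below 0. So did 3 of 11 tail bud genes (median 0.14). All 9 listed hindbrain genes were in the table too, summing to 92.1 to 114 in mutants and 116 to 134 in siblings, so that each mutant sum was below each sibling sum. The most changed of the 9 was *atoh1a*, a gene of the rhombic lip, at 16.55, 9.13 and 11.15 in mutants and 24.9, 26.12 and 25.96 in siblings. Its log2 fold change was -1.04 (limma adjusted p = 0.0506, and 0.00919 with the replicate block). Without this gene, left out with its values known, the other 8 summed to 97.5, 83.0 and 94.1 in mutants and 107.8, 89.9 and 108.0 in siblings, and the genotypes overlapped. The rhombomere genes *mafba* and *egr2b* had log2 fold changes of -0.004 and -0.02. Those of *egr2a* and *gbx1* were -0.47 and -0.62, without overlap (limma adjusted p = 0.127 and 0.0964, and 0.0555 and 0.0209 with the replicate block). Of the 9 hindbrain genes 7 lay below 0, with a median of -0.19. In 3 of the 9 all mutant values were below all sibling values, against 13.8% of all genes. Limma called 0 of the 9, against 1.7% of all genes, and 2 with the replicate block, both lower, against 6.87% of all genes. *hoxa2b* was lower beside these hindbrain values while *hoxb1a* and *hoxa1a* were higher, and the part of tissue composition in either was not tested.

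Hox proteins bind DNA together with cofactors of the TALE homeobox families Pbx, Meis and Pknox. All 14 listed cofactor genes were measured, and limma called 0 of them, against 1.7% of all genes. At an unadjusted p under 0.05 there were 2, both lower, against 20.9% of all genes in either direction. The median log2 fold change was -0.24, and the summed level 914 to 1078 normalized CPM in mutants against 1127 to 1204 in siblings. *pbx4*, the main Pbx gene of the early zebrafish hindbrain, was at 311, 253 and 281 in mutants and 355, 353 and 374 in siblings, without overlap (log2 fold change -0.36, limma adjusted p = 0.194). *meis1b* was at 194, 167 and 173 in mutants and 222, 211 and 203 in siblings, also without overlap. *meis1a* did not overlap in the other direction, at 78.8, 101.7 and 101.03 in mutants and 73.7, 72.0 and 75.5 in siblings (log2 fold change 0.33, limma adjusted p = 0.251). *pknox1.1* had the highest log2 fold change of the list, 0.40, with overlap. *pbx3b* was at 36.4, 14.3 and 13.7 in mutants and 46.3, 39.0 and 32.8 in siblings, with mutant replicate 1 among the siblings (log2 fold change -0.98, limma adjusted p = 0.167). In the blocked fit it fell (limma adjusted p = 0.0180), the 1 cofactor of 14 called there, against 13.7% of all genes (6.87% lower).

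Of 20 listed regulators of Hox expression, most make, break down or sense retinoic acid. Limma called 0 of the 20, against 1.7% of all genes. At an unadjusted p under 0.05 there were 4 higher and 1 lower. The median log2 fold change was 0.08. With the replicate block 2 rose, *rxrga* and *rargb*, and 1 fell, *gdf11*, a share close to the 13.7% of all genes called in that fit, as the unadjusted count was close to the 20.9% of all genes. *rxrga*, a retinoid X receptor, was at 13.3, 13 and 15.2 normalized CPM in mutants and 9.79, 7.19 and 7.58 in siblings (limma adjusted p = 0.0702, and 0.0191 with the block). *gdf11*, which in mouse promotes the switch from trunk to tail Hox expression, was at 6.54, 3.41 and 3.06 in mutants and 9.61, 8.48 and 7.37 in siblings. The genotypes did not overlap (log2 fold change -0.88, limma adjusted p = 0.102, and 0.0114 with the block). *aldh1a2*, which makes retinoic acid, was at 46.5, 55.6 and 52.7 in mutants and 49.2, 50.6 and 45.2 in siblings, with overlap. The caudal gene *cdx4*, an activator of posterior Hox genes, was at 6.83 in mutant replicate 3 and 1.26 and 2.53 in mutant replicates 1 and 2, and at 4.26 in sibling replicate 3 and 1.67 and 1.35 in sibling replicates 1 and 2. It thus followed replicate number, as the posterior Hox genes did (1.27 on the log2 scale for replicate 3, limma adjusted p = 0.0388). The other listed caudal genes, *cdx1b* and *cdx1a*, did not, at -0.50 and -0.003 in the same contrast (limma adjusted p = 0.199 and 0.991). Whether *cdx4* and the posterior Hox genes are linked here was not tested.

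The even-skipped genes lie beside Hox clusters. *evx2*, next to the hoxda cluster and expressed in spinal interneurons, was at 10.9, 5.74 and 5.35 normalized CPM in mutants and 13.6, 12.4 and 11.01 in siblings. All mutant values were below all sibling values, with mutant replicate 1 the nearest (log2 fold change -0.73, limma adjusted p = 0.147, and 0.0234 with the replicate block). Its Hox neighbour *hoxd13a*, picked with its values known, was at 1.37, 1.94 and 2.46 in mutants and 2.27, 1.54 and 2.86 in siblings, with overlap. *evx1* was at 2.80, 2.30 and 2.46 in mutants and 2.36, 2.73 and 3.43 in siblings, and overlapped too.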

How the data were processed

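Per the file headers, the authors deposited a normalized CPM signal per gene and library, with 2 decimals. Per the submitters' processing notes the tools included fastp, STAR, featureCounts and edgeR, and the genome build was GRCz11. Tool versions, scaling factors, strandedness and any gene filter count as not given in the sources used here. Whether reads of overlapping or antisense genes were counted apart is therefore not known. The shorter deposited table of 956 genes held 0 of the 48 Hox genes. Its criterion is not given in the sources used here.

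The test was limma 3.58.1 (R 4.3.3), applied to log2(value + 1) of all 21769 genes, mutant against sibling, with Benjamini-Hochberg adjustment and a threshold of 0.05. On this scale the fold change of a low gene is understated. The fit without the block was run on simulated data in which libraries varied independently, which does not check the blocked fit. Depth is the column sum over the value of 1 read, which was estimated from low values with a tolerance of 0.0055.

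Over 18506 genes with a mean of at least 1, libraries of the same number deviated together from their genotype means (r of 0.46, 0.45 and 0.59 for numbers 1, 2 and 3). All passed the bound of 0.1, so the numbers were taken to pair the libraries, and the block is given where it changes a call. It also changed that of *dhx38* (limma adjusted p = 0.0630 without the block and 0.00664 with it). Of the pairs of unlike number, mutant replicate 1 with sibling replicate 2 also passed (r of 0.15), and the others were below 0. Over the Hox genes alone that unlike pair had an r of 0.54, against 0.55, 0.41 and 0.80 for numbers 1, 2 and 3. The Hox genes thus set replicate 3 apart but did not clearly pair numbers 1 and 2.

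Values per library are given for members called with or without the block, the highest of each paralogue group, and the 3 largest fold changes in each direction. The members and lists were chosen with earlier results of these data known. Planned count tests were not run, since with 2 decimals 4 of 6 libraries missed the criterion set for placing whole reads. Read numbers given here are rounded to the nearest whole read.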

Additional observations from a re-analysis of the deposited data

How the results depend on the processing

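The 0 Hox genes called between genotypes (7 at an unadjusted p under 0.05) became 3, all lower, with the replicate block, alone (3) or joined by a variance trend (3) or centring (3), and without mutant replicate 1 (leaving out single libraries gave 0 to 3). The count stayed at 0 at an adjusted p under 0.01, with a mean of at least 1, a pseudocount of 0.1, that pseudocount and the block, centring, a variance trend, and in replicates 1 and 2 alone. The 370 genes called over the whole table became 41 at an adjusted p under 0.01, 205 with a pseudocount of 0.1, 2986 with the replicate block, 169 with both, 3800 with the block plus a variance trend, 2949 with the block plus centring, and 0 in replicates 1 and 2 alone (4236 at an unadjusted p under 0.05), a fit on fewer libraries. Fits that left out 1 library gave 31 to 1731. The 3 Hox genes called for replicate 3 became 0 with a pseudocount of 0.1 (26 at an unadjusted p under 0.05) and 6 with centring, and 0 to 5 when a library was left out. The median log2 fold change of groups 9 to 13 (-0.16) ran from -0.43 without mutant replicate 3 to 0.063 without sibling replicate 3. That of groups 1 to 4 (0.077) ran from -0.018 without mutant replicate 3 to 0.156 without sibling replicate 3, and was -0.00078 in replicates 1 and 2 alone. That of groups 5 to 8 stayed below 0. Both moved by less than their spread over pairs.

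Of the 19 Hox genes named by rule, none was called without the block on all 6 libraries. Signs turned, never in a called gene, for *hoxb3a* in replicates 1 and 2 alone (-0.053), and when single libraries were left out for *hoxc1a* (-0.018 to 0.14), *hoxb3a* (-0.016 to 0.068), *hoxb5b* (-0.094 to 0.0077), *hoxb7a* (-0.020 to 0.49), *hoxb9a* (-0.43 to 0.070), *hoxa10b* (-0.34 to 0.15), *hoxa11b* (-0.42 to 0.11) and *hoxc13a* (-0.13 to 0.45), on the log2 scale. For none of these changes was the cause tested. The replicate block changed the call of *hoxa2b*, *hoxc4a* and *hoxa13b* and of no other Hox gene. The combinations of block and trend, block and centring, replicates 1 and 2 alone and the replicate 3 contrast were chosen after seeing the data. The edgeR and DESeq2 tests listed in advance were not run. Low counts limit *hoxa11a* most, with 13 reads in mutant replicate 2.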

Other observations

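Trithorax and Polycomb proteins keep Hox genes active or silent through histone methylation. Of 33 measured genes of a list of both, 2 rose in mutants with limma and 0 fell, against 1.41% higher and 0.285% lower over all genes, and the blocked fit called 6 higher and 0 lower, where 6.85% of all genes were called higher and 6.87% lower. *kmt2ba*, a histone H3 lysine 4 methyltransferase gene, was at 160, 248 and 173 normalized CPM in mutants and 78.9, 88.3 and 79.7 in siblings (log2 fold change 1.2, SE 0.19, limma adjusted p = 0.0275). *kdm6a*, which encodes a demethylase of histone H3 lysine 27, was at 97.3, 126 and 109 in mutants and 60.4, 60.2 and 62.6 in siblings (log2 fold change 0.84, SE 0.14, limma adjusted p = 0.0364). In both genes all mutant values were above all sibling values, and mutant replicate 2 was the highest. The list median was 0.20, against -0.01 over all genes. The 48 Hox genes of the same libraries had a median of -0.14, and none passed in the same fit (7 at an unadjusted p under 0.05). Whether the 2 patterns are linked was not tested.

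The ParaHox gene *gsx1*, a neural homeobox gene outside the Hox clusters, was at 17.6, 12 and 17.4 normalized CPM in mutants and 23.03, 21.8 and 25.1 in siblings, without overlap (log2 fold change -0.56, limma adjusted p = 0.133, and 0.0327 with the replicate block).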
